A study of Bos taurus with 9 samples.

Results

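The mitochondrially encoded transcripts were followed during the chemical conversion of bovine ear fibroblasts (BEFs) into chemically induced adipocyte cells (CiADCs). The rows were chosen by symbol: of 21512 rows in the expression table, 14 carried a symbol starting with MT-. Of these, 13 were the protein-coding genes of the mitochondrial genome, each with an NCBI Gene ID between ncbi_3283877 (MT-ND1) and ncbi_3283889 (MT-CYB). The other row, MSTRG.1446, was a locus assembled from the reads that also bore the symbol MT-CYB. RNA-seq had been done on 9 samples of wild-type bovine cells, 3 per group. BEFs were cells grown out of ear margin tissue and sampled at day 0, without compounds, in DMEM with 10% fetal bovine serum (their columns are named AnEFs-0d). CiADCs-3d and CiADCs-6d had spent 3 and 6 days in N2B27 medium with 500 µg/mL VPA, an inhibitor of histone deacetylases, 1 µM TTNPB, an agonist of retinoic acid receptors, and 10 µM RepSox, an inhibitor of the TGF-beta receptor ALK5. No uninduced sample of 3 or 6 days was included, so compounds, medium and time in culture cannot be told apart. The labels do not say whether replicates came from separate animals or cultures, so the p-values measure only the spread between these samples.

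The mitochondrial genome is a small circular DNA that is present in many copies per cell. It is transcribed by its own polymerase into long polycistronic RNAs, which are cut mostly at the tRNAs that lie between the genes. All of its proteins are membrane subunits of the respiratory chain and the ATP synthase, and every other subunit of these complexes is encoded in the nucleus. Fat cells use mitochondria to supply building blocks for lipid synthesis and to burn fatty acids. In the order of RefSeq (assembly ARS-UCD2.0, in which all 13 genes were found by gene ID), the genes run ND1, ND2, CO1, CO2, ATP8, ATP6, CO3, ND3, ND4L, ND4, ND5, ND6 and CYB. In 4 places neighbours overlap (ATP8 with ATP6, ATP6 with CO3, ND4L with ND4, ND5 with ND6), and ND6 is the only protein-coding gene read from the other strand. How reads shared by neighbours, or by nuclear copies of mitochondrial DNA, were counted is not given in the sources used here, so the values of overlapping genes are uncertain where such reads were split. The mitochondrial rRNAs and tRNAs were not analysed here.

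The libraries held 18509244 to 24071580 counts. The summed level of 10 fibroblast markers was 60690 to 63523 CPM (counts scaled to a common library size) in BEFs, 23539 to 33921 CPM in CiADCs-3d and 16407 to 21562 CPM in CiADCs-6d. At day 3, 5 of the 10 were lower and 2 higher (PDGFRA and PDGFRB) at an adjusted p under 0.05. These were 50% and 20%, against 29.1% and 30.9% of all genes tested. At day 6, 7 were lower (70%, against 31.9% of all genes) and none was higher at that threshold (35.6% of all genes). The summed level of 10 adipocyte markers was 23.3 to 30.2 CPM in BEFs, 39.4 to 51.6 CPM at day 3 and 25.9 to 30.0 CPM at day 6, and none of them was at 0 in a whole group. Of the 9 adipocyte markers tested, 3 were higher at day 3 (ADIPOQ, PPARG and LPL) and 2 lower (CIDEC and FABP4). These were 33.3% and 22.2%, against 30.9% and 29.1% of all genes. At day 6 CEBPA and DGAT2 were also higher, making 5, and the same 2 were lower. These were 55.6% and 22.2%, against 35.6% and 31.9% of all genes. FABP4 went from 10.9 CPM in BEFs to 5.34 and 0.863 CPM at days 3 and 6, which lowered the sum. A sample of bulk cells does not show whether there were fewer cells of a type or less RNA of it per cell. Among the mitochondrial genes, CiADCs-3d replicate 1 stood apart from its group, with the highest level of the 3 samples in 12 of 12 genes tested, and results that rest on it are given with and without it. In CiADCs-6d, replicate 3 was the lowest of its group in 11 of the 12.

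Mitochondrial transcripts took up more of the library at day 3 than before induction or at day 6. They held 1.62%, 1.65% and 1.45% of all counts in the BEFs (1.57% ± 0.107, SD, n = 3). In CiADCs-3d the share was 3.14%, 2.37% and 2.65% (2.72% ± 0.387, SD, n = 3). In CiADCs-6d it was 1.62%, 1.95% and 1.43% (1.66% ± 0.263, SD, n = 3). Each CiADCs-3d sample lay above every sample of both other groups, whereas CiADCs-6d and BEFs overlapped. The mean share in CiADCs-3d was 1.73 times that of BEFs, and 1.60 times without CiADCs-3d replicate 1. The mean share in CiADCs-6d was 0.611 times that of CiADCs-3d, and 0.662 times without CiADCs-3d replicate 1. Against BEFs it was 1.06 times as large, a log2 ratio of 0.080 that turned to -0.049 without CiADCs-6d replicate 2. The adipocyte marker sum was likewise higher in every day 3 sample than in all samples of both other groups, and its part in the share was not tested. No p-value is given for a sum over chosen genes. Counted per length, as the share of the summed FPKM, the means were 3.21%, 5.28% and 3.16% in the order of the days, so that day 3 was again above both other groups, while CiADCs-6d was just below BEFs and overlapped them.

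**Figure D1:**
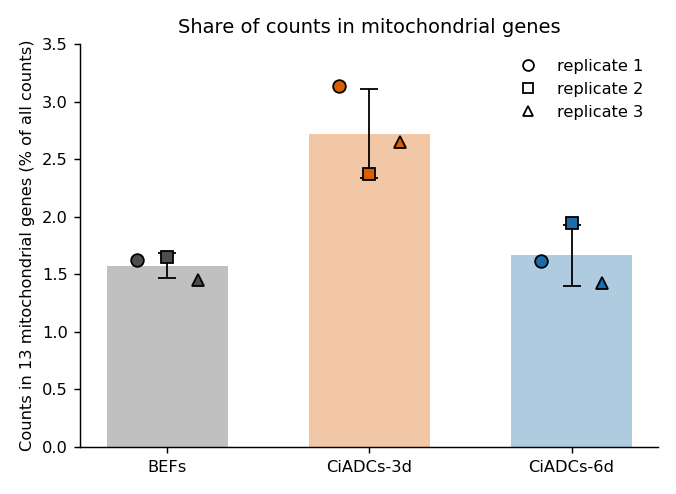
Share of all counts held by the 13 mitochondrial genes (y axis, percent of all counts) in BEFs, CiADCs-3d and CiADCs-6d. Bars are means of 3 samples, error bars are SD and each point is 1 sample; the CiADCs-3d samples, between 2.37% and 3.14%, lie above all others, and BEFs and CiADCs-6d overlap between 1.43% and 1.95%.

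Levels per length were given by FPKM. MT-CO1, the catalytic core subunit of cytochrome c oxidase, ranked 2nd of all rows by mean FPKM in BEFs, 1st in CiADCs-3d and 2nd in CiADCs-6d. Its mean FPKM was 5099 ± 360 before induction, 8851 ± 1152 at day 3 and 5640 ± 1020 at day 6 (SD, n = 3). MT-CO2 and MT-CO3 followed among these genes in each group, and the order was MT-CO1, MT-CO2 and MT-CO3 in BEFs and MT-CO1, MT-CO3 and MT-CO2 at both later days. In BEFs the FPKM of MT-CO2 (2060 to 2249) and MT-CO3 (1401 to 1697) did not overlap, in CiADCs-3d they did (2444 to 3147 and 2580 to 3902), and in CiADCs-6d they did not (1392 to 1716 and 1719 to 2587). MT-ND6 had the lowest mean FPKM of the 12 genes tested in each group, at 75.0 ± 11.8, 147 ± 44.0 and 75.9 ± 27.7 (SD, n = 3).

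A first comparison asked which mitochondrial transcripts differed between CiADCs-3d and BEFs. With edgeR's quasi-likelihood test and Benjamini-Hochberg adjustment over 14020 genes, 11 of the 12 mitochondrial genes tested were higher in CiADCs-3d at an adjusted p under 0.05 and none was lower, by the adjusted or the unadjusted p or by DESeq2. Of all genes tested, 30.9% were called higher and 29.1% lower, so a call in itself was common between these groups. The exception was MT-ND4L. In each of the 12 genes all 3 CiADCs-3d samples lay above all 3 BEFs, which held for 35.1% of all genes tested. The median log2 fold change over the 12 was 0.76, against 0.01 over all genes. The genes share precursor RNAs and libraries and are therefore not 12 independent observations. Without CiADCs-3d replicate 1, 10 of them were called higher. With a log2 fold change of at least 1 also required, MT-CYB passed (18.2% of all genes were higher by this rule and 9.94% lower). It lay near that limit: over 21 alternative fits its log2 fold change ran from 0.98 to 1.18. MT-CO3 and MT-ND6 reached 1.12 and 1.07 at their highest, so which genes passed depended on the fit.

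Complex III has a single mitochondrial subunit, cytochrome b (MT-CYB), which carries electrons through the inner membrane from ubiquinol. MT-CYB stood at 1099, 1088 and 1043 CPM in the BEFs, at 2561, 1857 and 2328 CPM in CiADCs-3d and at 1142, 1109 and 1035 CPM in CiADCs-6d. The CiADCs-3d samples were far above the rest, and the samples of day 0 and day 6 overlapped. The log2 fold change of CiADCs-3d against BEFs was 1.06 ± 0.12 (SE), with an adjusted p of 9.53e-06 by edgeR, the largest change of the 12 genes. From CiADCs-3d to CiADCs-6d MT-CYB fell by 1.04 on the log2 scale (SE 0.12, adjusted p 2.03e-04, edgeR).

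Complex IV, cytochrome c oxidase, has its catalytic core in MT-CO1, MT-CO2 and MT-CO3. MT-CO1 was at 8267, 8295 and 7381 CPM in the BEFs, at 15344, 12198 and 13429 CPM in CiADCs-3d and at 8086, 10177 and 7512 CPM in CiADCs-6d. CiADCs-3d was higher than BEFs by a log2 fold change of 0.77 ± 0.14 (SE, adjusted p 3.62e-04, edgeR), and CiADCs-6d replicate 2 was the only day 6 sample above the BEFs. MT-CO3, a structural subunit of the core, was at 1331, 1330 and 1115 CPM, then 2997, 2033 and 2489 CPM, then 1413, 1962 and 1355 CPM in the same order of groups and replicates. Its log2 fold change was 0.99 ± 0.17 (SE) in CiADCs-3d against BEFs, with an adjusted p of 2.87e-04 by edgeR. All CiADCs-6d samples of MT-CO3 lay above all BEFs, but the log2 fold change of 0.32 ± 0.17 (SE) did not pass, with an adjusted p of 0.105.

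MT-CO2, which receives electrons from cytochrome c, had another course than its partners. It was at 1552, 1544 and 1436 CPM in the BEFs, at 2117, 1687 and 1807 CPM in CiADCs-3d and at 1155, 1122 and 961 CPM in CiADCs-6d. The 3 groups did not overlap, with CiADCs-3d above and CiADCs-6d below the BEFs. MT-CO2 rose by a log2 fold change of 0.31 ± 0.11 (SE) to CiADCs-3d, with an adjusted p of 0.0338 by edgeR. That call was lost without BEFs replicate 1, 2 or 3 or without CiADCs-3d replicate 1 or 3, with adjusted p from 0.0528 to 0.115. In CiADCs-6d against BEFs, MT-CO2 fell by 0.49 on the log2 scale (SE 0.11, adjusted p 0.00234, edgeR), and it was called lower under every alternative tried.

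Complex V, the ATP synthase, has the proton channel subunit MT-ATP6 and the small subunit MT-ATP8 from the mitochondrial genome. MT-ATP6 was at 528, 549 and 512 CPM in the BEFs, at 1066, 837 and 945 CPM in CiADCs-3d and at 647, 681 and 565 CPM in CiADCs-6d. The groups did not overlap, in the order BEFs, CiADCs-6d and CiADCs-3d. The rise to CiADCs-3d was a log2 fold change of 0.84 ± 0.11 (SE, adjusted p 4.22e-05, edgeR). In CiADCs-6d against BEFs the log2 fold change was 0.25 ± 0.11 (SE) and the adjusted p 0.0639 by edgeR, while DESeq2 gave 0.0453. MT-ATP8 could not be followed: it had 1 count in 2 of 9 libraries, CiADCs-3d replicate 1 and CiADCs-6d replicate 2, and 0 in the others. A limit of 3 counts corresponds to 0.125 to 0.162 CPM per library, before TMM scaling and for counting error only. MT-ATP8 overlaps MT-ATP6, with which it shares an mRNA, and the part of that overlap in the low count was not tested.

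Complex I, NADH dehydrogenase, takes 7 subunits from the mitochondrial genome, all of them in its membrane arm. In CiADCs-3d 6 of the 7 were higher than in BEFs, with log2 fold changes from 0.70 (MT-ND4) to 0.94 (MT-ND6) and adjusted p between 5.84e-05 (MT-ND3) and 0.00629 (MT-ND2). MT-ND1, the subunit next to the ubiquinone site, was at 1020, 1047 and 901 CPM in the BEFs, at 1717, 1496 and 1626 CPM in CiADCs-3d and at 1067, 1043 and 851 CPM in CiADCs-6d. Its day 3 samples were clear of the rest, and its day 6 samples spanned the range of the BEFs. MT-ND2, MT-ND4 and MT-ND5, which resemble proton antiporters, were at 366 to 1015 CPM in BEFs, 615 to 1790 CPM in CiADCs-3d and 359 to 976 CPM in CiADCs-6d. MT-ND3 was at 182 to 206 CPM in BEFs, 336 to 432 CPM in CiADCs-3d and 203 to 258 CPM in CiADCs-6d.

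MT-ND6 and MT-ND4L were the members of complex I with the lowest mean FPKM in each group. MT-ND6 was at 39.2, 46.5 and 34.6 CPM in the BEFs, at 102, 62.9 and 66.1 CPM in CiADCs-3d and at 32.4, 55.3 and 30.7 CPM in CiADCs-6d. CiADCs-3d replicate 1 and CiADCs-6d replicate 2 stood above their groups. Its log2 fold change to CiADCs-3d, 0.94 ± 0.24 (SE, adjusted p 0.00422, edgeR), had the largest standard error of the 12. MT-ND6 lies antisense to the rest and overlaps MT-ND5, and whether the counting used strand is not given in the sources used here. MT-ND4L was at 66.7, 53.0 and 61.0 CPM in the BEFs, at 83.2, 69.5 and 69.0 CPM in CiADCs-3d and at 49.5, 32.1 and 33.6 CPM in CiADCs-6d. Its 3 groups did not overlap, yet the log2 fold change of 0.30 ± 0.16 (SE) between CiADCs-3d and BEFs did not pass, with an adjusted p of 0.129 by edgeR. With only these 2 groups in the fit the adjusted p was 0.0255, and without CiADCs-6d replicate 1 it was 0.0226. In CiADCs-6d against BEFs MT-ND4L fell by 0.65 on the log2 scale (SE 0.16, adjusted p 0.00349, edgeR).

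**Figure D2:**
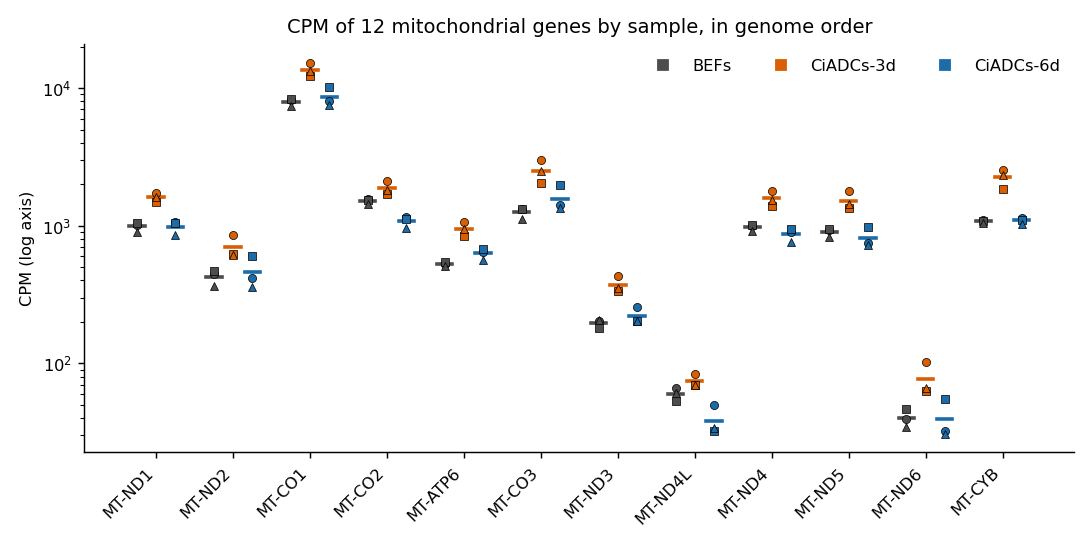
Level of each of the 12 mitochondrial genes tested (y axis, CPM, log axis), in the order of the genome, for the 3 groups. Points are single samples (circle, square and triangle for replicates 1, 2 and 3) and lines are means; every CiADCs-3d point lies above the BEFs of the same gene, and MT-CO2 and MT-ND4L fall below the BEFs in CiADCs-6d.

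The second comparison asked what remained at day 6. None of the 12 mitochondrial genes was called higher in CiADCs-6d than in BEFs by edgeR, against 35.6% of all genes tested, with 1 (MT-ATP6) at an unadjusted p under 0.05 and 1 by DESeq2. MT-CO2 and MT-ND4L were called lower, 2 of 12 against 31.9% of all genes. The CiADCs-6d samples were all above the BEFs in MT-ATP6 and MT-CO3 (37.7% of all genes) and all below them in MT-CO2 and MT-ND4L (35% of all genes). The other 8 genes overlapped, with log2 fold changes from -0.16 (MT-ND4) to 0.17 (MT-ND3). With a log2 fold change of at least 1 also required no member passed in either direction by edgeR, with the adjusted or the unadjusted p, or by DESeq2, against 21.9% of all genes higher and 13.4% lower. MSTRG.1446, at -0.96, lay near that limit: it reached -1.03 at its lowest over 21 alternative fits, so whether it passed depended on the fit. The median log2 fold change over the 12 was 0.01, against 0.03 over all genes. A p that misses the threshold does not show that these levels were equal: the standard errors of the 8 ran from 0.11 (MT-ND1) to 0.24 (MT-ND6).

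The third comparison set CiADCs-6d directly against CiADCs-3d. All 12 mitochondrial genes were lower in CiADCs-6d at an adjusted p under 0.05 by edgeR, against 13.6% of all genes tested, and none was higher by the adjusted or the unadjusted p or by DESeq2 (14.4% of all genes). In each of the 12 all CiADCs-6d samples lay below all CiADCs-3d samples, which held for 18% of all genes, and in none did they lie above (19.1%). The log2 fold changes ran from -1.04 (MT-CYB) to -0.59 (MT-ATP6), with a median of -0.77 against 0.01 over all genes. MT-ND2 was nearest to the threshold, with an adjusted p of 0.0321, and its call was lost without CiADCs-3d replicate 1 (0.0603) or without CiADCs-6d replicate 3 (0.108). With a log2 fold change of at least 1 also required, MT-CYB alone of the 12 passed (3.22% of all genes were lower and 4.09% higher by this rule). Over the 21 alternative fits MT-CYB ran from -1.16 to -0.97. MT-ND4L, MT-ND5 and MT-ND6 reached -1.21, -1.06 and -1.31 at their lowest, so this result also depended on the fit. This comparison and that of CiADCs-3d with BEFs share the CiADCs-3d samples, so a high day 3 sample enters both.

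**Figure D3:**
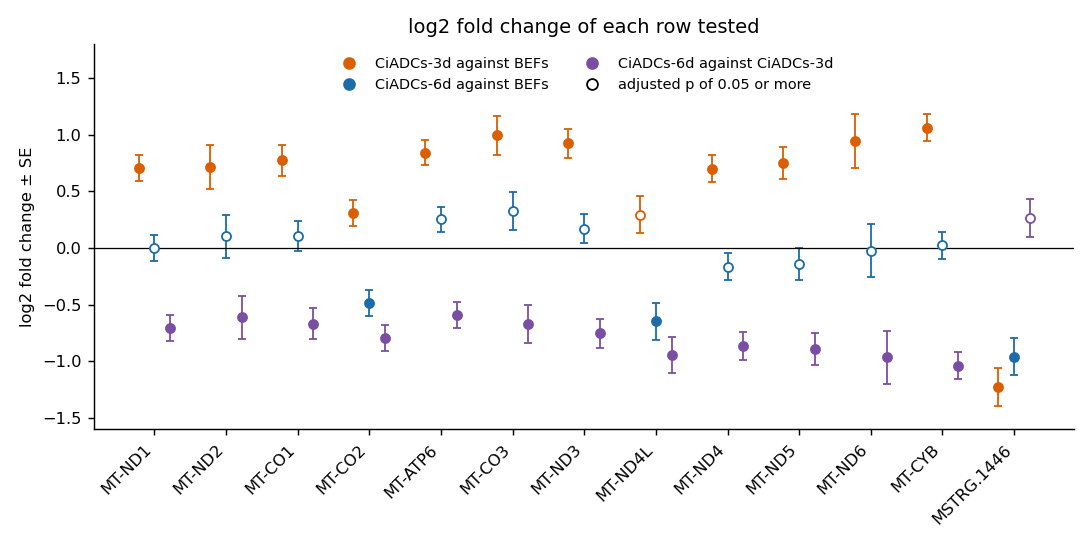
Log2 fold change ± SE (y axis) of the 12 mitochondrial genes and of MSTRG.1446 in the 3 comparisons, from edgeR. Filled points passed an adjusted p under 0.05. The 12 genes lie between 0.30 and 1.06 for CiADCs-3d against BEFs and between -1.04 and -0.59 for CiADCs-6d against CiADCs-3d. For CiADCs-6d against BEFs they lie between -0.65 and 0.32, with MT-CO2 and MT-ND4L called lower. MSTRG.1446 is at -1.22 for CiADCs-3d and -0.96 for CiADCs-6d against BEFs, and at 0.26 between the days.

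The make-up of the mitochondrial counts also differed between groups, a measure that does not depend on how libraries were scaled. Shares here are percentages of the summed counts of the 13 genes and are not corrected for length. MT-CO2 held 9.42%, 9.32% and 9.71% of them in the BEFs, 6.86%, 7.05% and 6.76% in CiADCs-3d and 7.26%, 5.93% and 6.67% in CiADCs-6d. The drop was complete at day 3, when no sample of either later group reached the BEFs and the later groups overlapped. MT-ND4L moved the same way, from 0.379% ± 0.0514 to 0.273% ± 0.0162 and 0.238% ± 0.0707 (SD, n = 3), although CiADCs-6d replicate 1 (0.311%) came close to the lowest of the BEFs (0.320%). MT-ND4 went from 6.10% ± 0.0672 to 5.81% ± 0.0263 and 5.30% ± 0.311, without overlap between any groups. MT-ND5 held 5.63% to 5.75%, 5.41% to 5.80% and 4.75% to 5.16%, and its CiADCs-6d samples lay below all others.

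Others gained. The share of MT-CO3 in the mitochondrial counts was 7.88% ± 0.298 before induction, 9.17% ± 0.622 at day 3 and 9.56% ± 0.761 at day 6 (SD, n = 3), with both later groups above the BEFs. MT-CYB held 6.76% ± 0.255, 8.26% ± 0.478 and 6.74% ± 0.762, so that its gain was present at day 3 and not at day 6. MT-ATP6 held 3.21% to 3.46%, 3.45% to 3.54% and 3.60% to 4.06%, and the CiADCs-6d samples lay above all others. MT-CO1 held 49.9% to 50.2%, 49.7% to 50.9% and 50.8% to 53.8%, so that CiADCs-6d lay above BEFs and overlapped CiADCs-3d. MT-ND1, MT-ND2, MT-ND3 and MT-ND6 overlapped between all groups. In the exact permutation test 3 against 3 samples cannot give a two-sided p below 0.1, so these shares are given without a test. Summed by complex, complex I held 22.5% ± 0.185 before induction, 21.9% ± 0.425 at day 3 and 20.9% ± 0.766 at day 6. Both later groups lay below all BEFs. Complex IV held 67.4% ± 0.268, 66.4% ± 0.104 and 68.4% ± 1.60 in the same order. Its day 3 samples lay below all BEFs, whereas its day 6 samples (66.9% to 70.1%) overlapped the BEFs (67.1% to 67.7%). Within complex IV the shares of MT-CO2 and MT-CO3 moved in opposite directions.

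**Figure D4:**
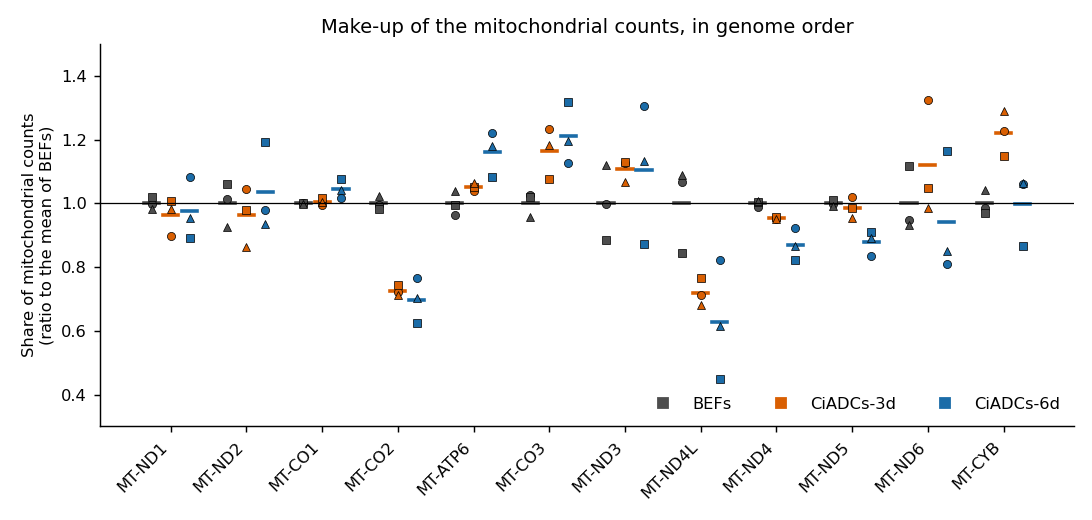
Share of each gene in the mitochondrial counts, as a ratio to the mean of BEFs (y axis), in the order of the genome. Points are single samples (circle, square and triangle for replicates 1, 2 and 3) and lines are means; MT-CO2 and MT-ND4L lie below 1 in all CiADCs samples, MT-CO3 lies above the BEFs at both days and MT-CYB at day 3.

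Within a group, the mitochondrial genes tended to go up and down together from sample to sample, though not in full. In CiADCs-6d, for example, replicate 1 was the highest in 5 genes and replicate 2 in 7. The deviations of log2 CPM from the group mean had a median Pearson correlation of 0.75 over the 66 pairs of genes and 9 samples, from -0.18 (MT-ND4L and MT-ND6) to 0.98 (MT-CO1 and MT-CO3). The points share libraries, and the correlations are a description across these samples. No value for other gene pairs is given beside them, so the trait is not shown to be particular to these genes.

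MSTRG.1446 went against its symbol. The table describes it as similar to an endogenous retrovirus Env polyprotein and gives it a length of 4991 bp, as implied by its counts and FPKM, where MT-CYB (ncbi_3283889) has 1140 bp. It had 467, 471 and 419 counts in the BEFs, 201, 154 and 178 in CiADCs-3d and 191, 244 and 201 in CiADCs-6d, a mean FPKM of 3.96, 1.72 and 2.08. Both later groups lay below the BEFs and overlapped each other. MSTRG.1446 fell by 1.22 on the log2 scale from BEFs to CiADCs-3d (SE 0.17, adjusted p 4.65e-05, edgeR) and by 0.96 to CiADCs-6d (SE 0.16, adjusted p 2.34e-04). It was left out of all sums over mitochondrial genes above.

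Nuclear genes that serve the same complexes were set beside these values. Of 71 tested nuclear subunits of complexes I, III, IV and V, 8 were higher and 14 lower in CiADCs-3d than in BEFs, with a median log2 fold change of -0.08. These are 11.3% and 19.7% of them, against 30.9% and 29.1% of all genes tested. At day 6 the counts were 11 and 24 (15.5% and 33.8%, median -0.18), against 35.6% and 31.9% of all genes. Between the days they were 4 and 5 (5.63% and 7.04%, median -0.12), against 14.4% and 13.6% of all genes. The share called lower at day 6 was near that of all genes. Complex I counted 6 higher and 8 lower of 36 at day 3 and 5 and 13 at day 6, among them NDUFA9, which fell by 0.51 and 0.87 on the log2 scale (adjusted p 0.0129 and 3.42e-04, edgeR). In complex IV 2 of 11 were higher and 1 lower at day 3. COX6C, a small subunit of the holoenzyme, rose from 25.6 to 70.7 CPM, a log2 fold change of 1.47 (adjusted p 1.84e-06, edgeR), and NDUFA4, another, fell by 0.49 (adjusted p 0.00167). At day 6 4 were higher, COX5A among them (log2 fold change 0.63, adjusted p 5.56e-04), and 2 lower.

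In complex V none of 15 nuclear subunits was higher than in BEFs at either day by edgeR, DESeq2 or the unadjusted p, and 3 were lower at day 3 and 8 at day 6. Those lower were 20% and 53.3%. The shares of all genes were again 30.9% higher and 29.1% lower at day 3, and 35.6% and 31.9% at day 6. They also apply to the counts for complexes III and II below. ATP5F1B, the catalytic beta subunit (listed as ATP5B), stood at 629 ± 25.0, 387 ± 26.0 and 320 ± 50.6 CPM (SD, n = 3) in BEFs, CiADCs-3d and CiADCs-6d. It fell by 0.70 on the log2 scale to CiADCs-3d (adjusted p 2.57e-04, edgeR). In complex III 2 of 9 were lower at day 3 and none higher by edgeR or DESeq2, with 1 at an unadjusted p under 0.05 (UQCRC1, named after its values were seen). At day 6 2 were higher and 1 lower: UQCRH and UQCR10 rose by log2 fold changes of 0.42 and 0.47, and UQCR11 fell by 0.68. Complex II, which has no mitochondrial subunit, had 2 of 4 higher and 1 lower at day 3 and 1 higher at day 6, its flavoprotein SDHA (log2 fold change 0.48, adjusted p 0.00339, edgeR).

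Genes that make and handle mitochondrial RNA were called in both directions. POLRMT, the mitochondrial RNA polymerase, was at 27.5 ± 2.81, 33.5 ± 3.47 and 47.9 ± 5.54 CPM (SD, n = 3). Its log2 fold change was 0.29 at day 3 (adjusted p 0.0669, edgeR) and 0.80 at day 6 (adjusted p 1.14e-04). TFAM, which packages mitochondrial DNA and starts its transcription, was at 10.7 ± 0.687 CPM in BEFs and had log2 fold changes of -0.23 and -0.24, neither of which passed (adjusted p 0.214 and 0.184, edgeR). Of 16 genes of mitochondrial transcription and DNA replication, 3 were higher and 4 lower at day 3 and 8 higher and 3 lower at day 6. For this list and those that follow, the shares of all genes to read the counts against are again 30.9% higher and 29.1% lower at day 3 and 35.6% and 31.9% at day 6. MGME1, a nuclease of mitochondrial DNA maintenance, fell from 16.1 to 2.82 and 1.73 CPM, and RNASEH1, which removes RNA from RNA-DNA hybrids, from 35.5 to 22.6 and 19.3 CPM. MTERF2, of the mitochondrial termination factor family, rose from 3.06 to 6.73 and 10.1 CPM, and all of these changes against BEFs passed.

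Of 18 genes of mitochondrial RNA processing, stability and decay, none was higher at day 3 by edgeR, DESeq2 or the unadjusted p, and 4 were lower. At day 6 1 was higher and 7 lower (38.9%, against 31.9% of all genes). LRPPRC, which stabilises mitochondrial mRNAs, stood at 93.6 ± 3.53, 71.6 ± 3.29 and 52.0 ± 3.72 CPM (SD, n = 3) in BEFs, CiADCs-3d and CiADCs-6d. It fell by 0.39 on the log2 scale at day 3 (adjusted p 0.00302, edgeR) and by 0.85 at day 6 (adjusted p 5.39e-06). FASTKD2, an RNA-binding protein of the mitochondrial matrix, fell by 0.88 and 1.53. HSD17B10, a subunit of mitochondrial RNase P, had a log2 fold change of -0.18 at day 3 (adjusted p 0.328) and fell by 1.07 at day 6 (adjusted p 5.75e-05). LRPPRC was below the BEFs at day 3, when the mitochondrial mRNAs were above them. From day 3 to day 6 LRPPRC fell by 0.46 on the log2 scale (adjusted p 0.00399, edgeR), and the mitochondrial mRNAs fell as well. The part of LRPPRC in these levels was not tested.

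Of 7 regulators of mitochondrial biogenesis, 1 was higher and 3 lower at day 3, and 2 were higher and 2 lower at day 6. PPARGC1A, a coactivator of mitochondrial and thermogenic genes, rose from 0.319 ± 0.265 CPM in BEFs to 1.15 ± 0.252 CPM in CiADCs-3d and 1.92 ± 0.190 CPM in CiADCs-6d (SD, n = 3). Its log2 fold changes against BEFs were 1.87 and 2.60 (adjusted p 0.00626 and 4.29e-04, edgeR), at a low level throughout. ESRRA, a nuclear receptor that works with it, had a log2 fold change of 0.33 at day 3 (adjusted p 0.0755) and rose by 0.76 at day 6 (adjusted p 6.45e-04). GABPB1, a subunit of nuclear respiratory factor 2, fell by 1.12 and 0.59 on the log2 scale.

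Genes of other mitochondrial proteins were set beside these. Of 73 tested mitochondrial ribosomal proteins, which translate these mRNAs, 9 were higher and 23 lower at day 3 (median log2 fold change -0.15) and 12 higher and 26 lower at day 6 (median -0.18). The lower calls were 31.5% and 35.6% of them, against 29.1% and 31.9% of all genes, and the higher calls 12.3% and 16.4%, against 30.9% and 35.6%. The largest changes at day 6 were in MRPS6, which fell by 2.23, MRPS28, which fell from 5.24 to 1.85 CPM, and MRPL48, which fell by 1.22. Of 13 proteins of the outer membrane, import and matrix, 1 was higher and 5 lower at day 3 (7.69% and 38.5%) and 2 higher and 6 lower at day 6 (15.4% and 46.2%). The import channel TOMM40 fell from 63.0 to 29.9 and 24.4 CPM and the porin VDAC2 from 142 to 80.2 and 82.1 CPM, while the porin VDAC3 rose from 96.1 to 233 and 175 CPM, each past the threshold at both days.

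**Figure D5:**
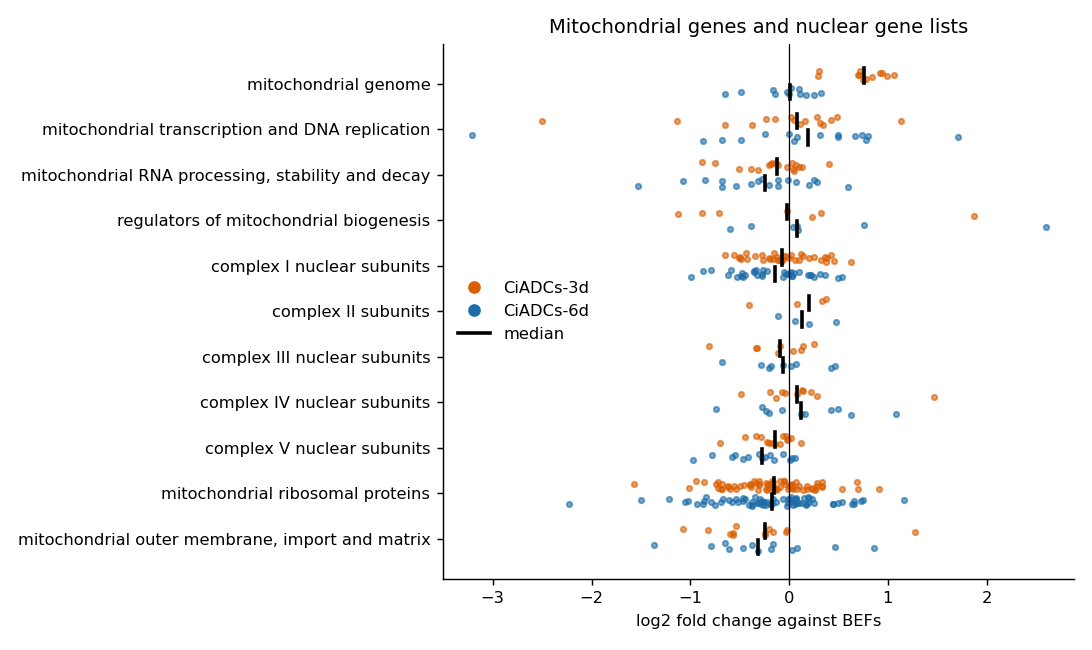
Log2 fold change against BEFs (x axis) of every tested gene of the mitochondrial genome and of 10 lists of nuclear genes, for both later groups. Each point is 1 gene and the vertical bars are medians; the mitochondrial genome has a median of 0.76 in CiADCs-3d and 0.01 in CiADCs-6d, and the lists of nuclear genes have medians between -0.32 and 0.20.

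Markers of other cell types differed between the groups as well. The summed level of 5 endothelial markers was 12.1 to 17.9 CPM in BEFs, 316 to 457 CPM at day 3 and 201 to 326 CPM at day 6, and in both later groups nearly all of it came from VWF (means of 7.75, 367 and 245 CPM). Its members went apart: of the 3 tested, VWF and TEK were called higher at day 3. At day 6 VWF was called higher and PECAM1 lower (adjusted p 0.0345, edgeR). PECAM1 was at 4.31, 2.73 and 2.55 CPM in the order of the days. The sum of 5 blood cell markers was 1.16 to 1.74, 46.2 to 47.1 and 63.8 to 81.3 CPM, mostly CD14, and the defining marker PTPRC was at 0 in all libraries. Of 6 keratinocyte markers the sum was 56.0 to 73.9, 90.5 to 116 and 90.6 to 99.8 CPM. Its members went apart: CDH1, a cadherin of epithelia, rose from 28.0 to 85.1 CPM at day 3, whereas the keratins KRT5 (31.6 to 15.3 CPM, adjusted p 0.00341, edgeR) and KRT14 (adjusted p 0.0488) fell. KRT1, at 0 in BEFs, was the other marker called higher at day 3. Of 5 cartilage markers the sum was 316 to 320, 60.2 to 70.5 and 38.7 to 57.5 CPM, which followed ACAN (316, 37.9 and 28.0 CPM). The other 3 tested, COL2A1, MATN3 and COL11A2, were called higher at both days (75% of the 4 tested). MATN3 (0.0910, 3.74 and 2.56 CPM) and COL11A2 (0.484, 5.25 and 3.64 CPM) were at low levels. For the marker calls given here, the shares of all genes called higher were 30.9% at day 3 and 35.6% at day 6. The shares called lower were 29.1% and 31.9%. The endothelial sum reached its highest values in CiADCs-3d, as the mitochondrial share did, although its ranges at day 3 and day 6 overlapped, and the part of these sums in that share was not tested.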

How the data were processed

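RNA-seq values of 9 bovine samples were used as deposited by the authors, with 3 samples in each group. For each gene the table deposited by the authors gives an expected count, the estimated number of reads, and an FPKM value, which equals the count scaled to gene length and to the total count. The submitters' processing notes list RSEM, StringTie 1.3.1, HISAT2 2.2.4 and fastp 0.18.0, whereas the study's methods name TopHat and HTSeq, and the genome build is not given in the sources used here. The labels name Ribo-Zero rRNA removal and the study's methods oligo(dT) selection for eukaryotic RNA, and such a choice could change the level of mitochondrial RNA in all samples.

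Totals of 18509244 to 24071580 counts set the counting precision. Expected counts were rounded, a filter on low counts (filterByExpr, edgeR 4.0.16, minimum count 10, minimum total 15) left 14020 of 21512 genes, and libraries were scaled by TMM. The quasi-likelihood test used all 9 samples and no replicate block, and p-values were adjusted by Benjamini-Hochberg over all genes tested. A gene was called at an adjusted p under 0.05, two-sided. The fit was tested on simulated counts. CPM of single genes were taken from edgeR on the TMM-scaled libraries, whereas the summed CPM of marker lists were scaled to the total count only. Alternatives were DESeq2 1.42.0, limma 3.58.1 on log2(FPKM + 1) and log2(FPKM + 0.1), other scalings and filters, fits of 2 groups, a replicate block and leaving out each sample. R 4.3.3, Python 3.11.15 and matplotlib 3.10.9 were used.

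All rows with a symbol starting with MT- were named, and of each of 10 nuclear lists up to 3 genes with the largest absolute log2 fold change among those called in CiADCs-6d against BEFs, plus POLRMT, TFAM and PPARGC1A. The members, the lists and the 7 marker lists were chosen with earlier results of these data known, and the result of 1 marker list is not reported here. Older symbols were matched through RefSeq gene IDs, and all 204 list entries were found.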

Additional observations from a re-analysis of the deposited data

Results flagged for a closer look

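The 3-day and 6-day effects against the same BEFs differed in all 12 mitochondrial genes tested, by edgeR's test of CiADCs-6d against CiADCs-3d with adjustment over 14020 genes. In complex I the log2 difference was -0.71 for MT-ND1, -0.61 for MT-ND2, -0.75 for MT-ND3, -0.94 for MT-ND4L, -0.86 for MT-ND4, -0.89 for MT-ND5 and -0.97 for MT-ND6. In complex IV it was -0.67 for MT-CO1, -0.79 for MT-CO2 and -0.67 for MT-CO3, in complex V -0.59 for MT-ATP6 and in complex III -1.04 for MT-CYB. All 3 CiADCs-6d samples lay below all 3 CiADCs-3d samples in each. Of these, MT-ND2 had the largest adjusted p, 0.0321.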

How the results depend on the processing

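Each of the 13 members tested was fitted under 21 alternatives in each comparison. Of the member values, 774 kept direction and side of the threshold, 13 lost a call, 10 gained one and 22 changed sign. The 22 sign changes were all in CiADCs-6d against BEFs, in genes not called under any alternative, and their cause was not tested. For MT-ND1 the log2 fold change was 0.035 with total-count scaling, 0.046 with at least 10 counts in every sample, 0.029 with limma on FPKM with a pseudocount of 1 or 0.1 or without a filter and 0.0060 with only the 2 groups. For MT-ND6 it was 0.018 with total-count scaling, 0.023 with at least 10 counts in every sample and 0.079 without both CiADCs samples numbered 1, an alternative chosen after seeing the data. For MT-CYB it was -0.018 with upper-quartile scaling and -0.031 without both samples numbered 1. Leaving out 1 sample at a time gave -0.089 to 0.077 for MT-ND1, -0.15 to 0.23 for MT-ND2, -0.040 to 0.18 for MT-CO1, -0.35 to 0.11 for MT-ND6 and -0.032 to 0.048 for MT-CYB.

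The count of members higher in CiADCs-6d than in BEFs, 0 in the edgeR fit to all 9 samples, was 1 under DESeq2, total-count scaling, at least 10 counts in every sample and only the 2 groups (MT-ATP6, adjusted p 0.0315 to 0.0462), and 0 to 1 when 1 sample was left out, being 1 without CiADCs-6d replicate 3. It was also 1 without both samples numbered 1 (MT-CO3, adjusted p 0.0278), where MSTRG.1446 was higher in CiADCs-6d than in CiADCs-3d, making that count 1 (log2 fold change 0.50, adjusted p 0.00989). Without a filter limma did not call MT-CO2 at day 3 (adjusted p 0.123) or MT-CO1, MT-CO3 and MT-ND2 from day 3 to day 6 (0.0703, 0.0602 and 0.0831). MT-ND2 from day 3 to day 6 was also not called with only the 2 groups (0.0587) or without both samples numbered 1 (0.0612). Without a filter the median of all genes moved to 0.11 in CiADCs-6d against BEFs. The log2 ratio of the share of counts kept its direction for CiADCs-3d against BEFs and CiADCs-6d against CiADCs-3d under all alternatives run. For CiADCs-6d against BEFs (0.080) it turned to -0.023 as the share of summed FPKM and -0.049 without CiADCs-6d replicate 2.

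Same-numbered samples showed no common deviation (r from -0.45 to 0.26, over 0.1 in 2 of 9 pairs). Of 18 best matches, 6 had the same number. With 3 samples per group these values cannot exclude that samples of the same number were paired. With a replicate block 12 members were higher and 1 lower in CiADCs-3d against BEFs (MT-ND4L passed, adjusted p 0.0465), and the other counts were 0 and 3 at day 6 and 0 and 12 between the days. MT-ATP8, with 2 counts in all over 9 libraries, could not be compared at this depth.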
